A study of Mus musculus with 2 samples.

Results

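The squares described here are the 5% of positions in a section of irradiated mouse intestine that held the highest share of counts from 4 genes of goblet cells, Zg16, Fcgbp, Clca1 and Muc2. The section was labelled Dpf2 knockout and came from a mouse given 10 Gy of X-rays. It was compared, where stated, with 1 section from an irradiated mouse labelled wild type. Dpf2 encodes a subunit of the BAF chromatin remodelling complex. The sources used here do not give the mice's age, the exons and tissue affected by the deletion, the intestinal segment or how long after the X-rays it was taken. Counts were summed over squares with a side of 10 position units, whose length the sources used here do not give. Of 8346 squares, 8285 held 1000 or more counts and were kept, and the 414 with the highest score were taken, called the high-score squares here. The score is the summed count of the 4 genes over all counts of the square, in percent. The choice therefore rests on the same counts as the values below, so that these values describe the squares and test nothing. With 1 section for each label there were also no replicates, and no p-value is given.

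Goblet cells are the mucus-secreting cells of the intestinal epithelium. They package the gel-forming mucin Muc2 into granules after heavy glycosylation and disulphide linking in the endoplasmic reticulum (ER) and Golgi. With it they secrete Fcgbp, a protein bound to the mucin network, Clca1, a protease that processes it, and Zg16, a lectin-like protein that binds bacteria. In the small intestine they are scattered among enterocytes from the crypt to the tip of the villus, and enterocytes change their gene expression as they move towards the tip. A square held a median of 11 barcodes and so can hold several cells. A higher level in a square can mean more cells of a type or more RNA per cell, which cannot be told apart here.

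The 4 score genes were the only genes used to choose the squares. In GRCm38, Zg16 lies at chr7:127050156-127052675, Fcgbp at chr7:28071236-28120864, Muc2 at chr7:141690340-141754691 and Clca1 at chr3:145004537-145032776. Because the 4 counted together by design, the start regions of Fcgbp and Muc2 are shown for context, as RefSeq gives them, from 250 bases before to 50 bases after the start (GRCm38.p6, plus strand, 5′ to 3′). Capitals mark matches to 6 motifs searched on both strands. They are the TATA-box letters TATAAA, CDX motif TTTATNG, forkhead motif TGTTTNC, E-box CAGNTG, AP-1-like pattern TGANTCA and the interferon-stimulated response element. The first sequence is chr7:28070986-28071285 and the second chr7:141690090-141690389.
Fcgbp: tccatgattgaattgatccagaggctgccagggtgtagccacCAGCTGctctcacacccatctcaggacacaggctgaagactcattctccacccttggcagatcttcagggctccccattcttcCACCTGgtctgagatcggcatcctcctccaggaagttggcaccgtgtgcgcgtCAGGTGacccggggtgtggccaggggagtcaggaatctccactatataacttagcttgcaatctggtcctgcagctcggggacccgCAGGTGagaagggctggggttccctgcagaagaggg
Muc2: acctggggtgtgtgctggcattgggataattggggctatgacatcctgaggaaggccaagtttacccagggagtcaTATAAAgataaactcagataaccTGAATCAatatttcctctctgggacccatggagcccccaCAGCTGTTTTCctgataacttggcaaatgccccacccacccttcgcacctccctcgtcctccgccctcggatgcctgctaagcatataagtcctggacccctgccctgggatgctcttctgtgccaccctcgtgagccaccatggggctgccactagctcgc

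The Fcgbp window held E-boxes at 4 positions, -208, -125, -72 and 15 from the start. The Muc2 window held the letters TATAAA at -174, the AP-1-like TGAATCA at -151, an E-box at -112 and a forkhead motif at -108, which overlaps that E-box. Whether TATAAA at this position acts as a TATA box was not tested. Among 32851 RefSeq windows of the same length, 51.4% held an E-box, 20.5% the forkhead motif and 13.6% TATAAA. The CDX motif was held by 10.9%, the AP-1-like pattern by 7.81% and the interferon-stimulated response element by 3.44%. A match describes letters and is not a bound site.

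The section labelled knockout held 89754886 counts over 88056 barcodes and the section labelled wild type 39824941 over 50970. In the section labelled knockout the high-score squares held 4815431 counts over 4076 barcodes. Their depth was close to that of the other 7871 squares, with medians of 11274 and 10160 counts and of 3615 and 3611 detected genes per square. Dpf2 itself stood at 23.9 CPM (counts per 1000000 counts) in the high-score squares and at 26.1 CPM in the remaining squares, from 115 and 2214 counts, a log2 ratio of -0.13 (95% counting interval -0.41 to 0.14). Dpf2 counts were thus present in the section labelled knockout. In the section labelled wild type, squares chosen by the same rule held 28.2 CPM and the rest 23.3 CPM of Dpf2, so the targeted gene does not separate the labels, and the groups are named by label throughout. Genes on chromosomes X and Y held 0 counts in both sections and have no value here.

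The score ran without a gap through the threshold. Among the high-score squares it was 1.02% at the lowest, 1.22% at the median and 3.28% at the highest, and among the remaining squares 0, 0.469 and 1.02%. The last square inside held 56 score counts of 5502, and the first outside held 212 of 20837. These scores, 1.01781% and 1.01742%, lie within each other's 95% binomial (Clopper-Pearson) intervals, 0.770 to 1.32% and 0.886 to 1.16%. Squares near the threshold are therefore not distinguishable at this depth, and the high-score squares are described as the upper end of a range. The squares compared are neighbours in rank, so their closeness cannot show whether a separate class exists.

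**Figure D1:**
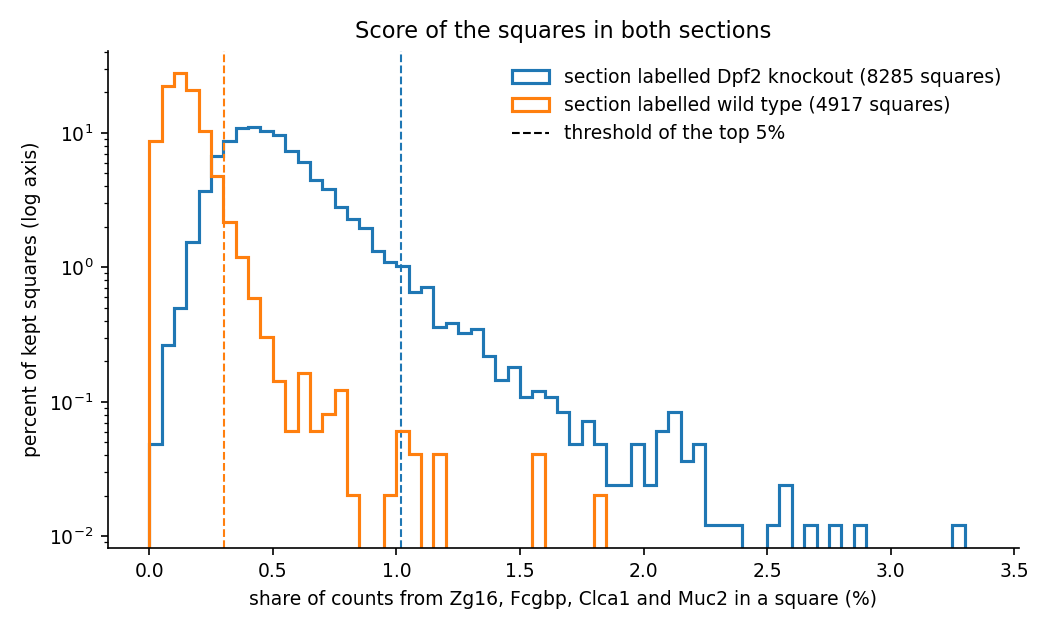
Share of counts from the 4 score genes in each kept square (x axis, percent) against the percent of squares (y axis, log scale), for the section labelled knockout (8285 squares) and the section labelled wild type (4917 squares); dashed lines mark the top 5% of each. The distribution of the section labelled knockout has no gap at its threshold, and 8 of 4917 squares of the other section reach that threshold.

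Zg16 supplied most of the score. In the high-score squares it gave 60.1% of the score counts, Fcgbp 24.5%, Muc2 11.8% and Clca1 3.61%; these are shares of counts and not levels per length. The shares were nearly the same in the remaining squares, at 60.1, 24.0, 12.2 and 3.63%. Zg16 ranged over the high-score squares from 4547 to 19246 CPM with a median of 7537 CPM, and over the remaining squares from 0 to 8094 CPM with a median of 2810 CPM. Muc2 ranged from 0 to 4403 CPM with a median of 1465 CPM, against a median of 561 CPM. The groups overlapped for each of the 4 genes taken alone. Summed over squares, the log2 ratios of CPM, high-score over remaining, were 1.41 for Zg16, 1.43 for Fcgbp, 1.40 for Clca1 and 1.36 for Muc2, as the rule requires of their sum.

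Score genes were counted in nearly every part of the tissue. Only 8 of the 7871 remaining squares held no Zg16 count. In the 828 squares with the highest share of smooth muscle genes, a tissue that itself has no goblet cells, the 4 genes still made up 0.336% of counts and Zg16 stood at 1995 CPM, with no square at 0. The enterocyte gene Apoa4 stood at 2188 CPM in them, so that epithelial transcripts in general were counted there. The median score of all remaining squares was 0.469%. A score-gene count in a square does therefore not by itself mark a goblet cell there. Whether these squares also hold epithelium or received its RNA was not tested.

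The high-score squares were unevenly spread over the section. Of the 414 squares, 308 (74.4%) touched another high-score square, while 1609 of the remaining squares (20.4%) touched one. They formed 181 patches, 106 of them single squares, and the largest patch held 38. Splitting the section into 4 parts of about equal size by position gave 32, 77, 142 and 163 high-score squares, or 1.496, 3.70, 6.88 and 8.15% of the squares of each part. The median distance to the nearest muscle-rich square was 44.7 position units, against 28.3 for the remaining squares, which include all 828 muscle-rich squares. It was 41.2 for the squares touching a high-score square and also 44.7 for the remaining squares rich in villus-tip genes that are described below.

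**Figure D2:**
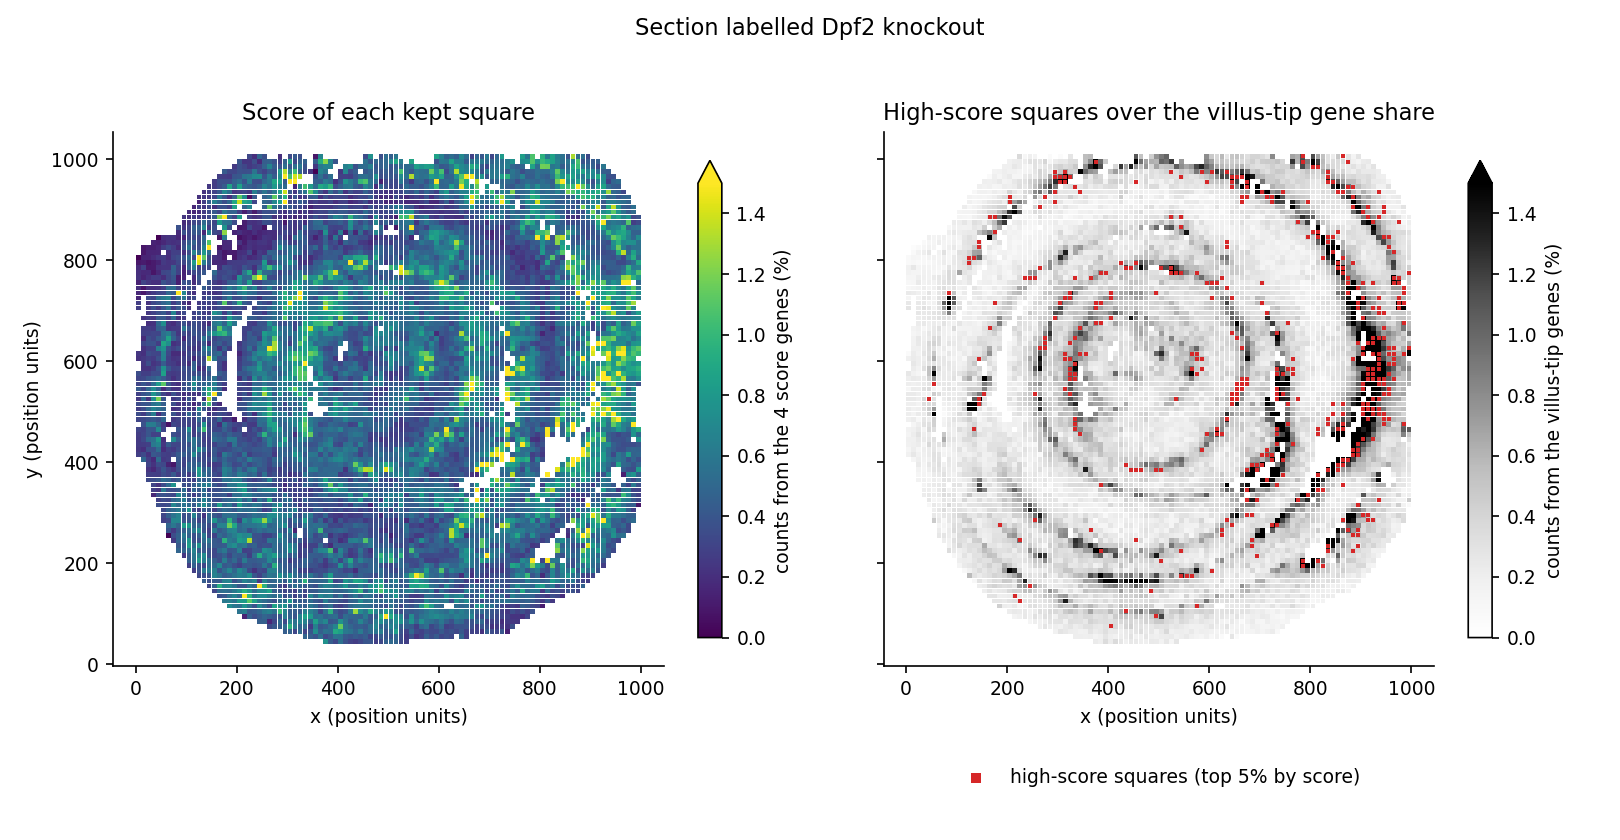
Position of the kept squares in the section labelled knockout (axes in position units). Left, the score in percent; right, the share of counts from the villus-tip genes in percent (grey) with the 414 high-score squares in red, many of which lie along the dark lines of villus-tip genes and most at high x, where parts hold 6.88 and 8.15% of squares against 1.496 and 3.70% at low x.

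Among the 13148 other genes that had at least 200 counts, 104 (0.791%) reached a ratio of 2 or more in favour of the high-score squares and 1440 (11.0%) the inverse; both are called at least 2-fold below. The median log2 ratio of all 13148 was -0.30, and 27.6% of them lay above 0, so a list with a median near -0.30 stands where genes in general stood. Scaling to the median of ratios instead raises every value by 0.30. Of the 104 higher genes, 91 lay above 0 in each of the 4 parts of the section. In a further choice, squares were taken from barcodes at even x positions and the genes measured at the odd ones. All 104 then lay above 0 and 60 stayed at least 2-fold higher, while 0.581% of all genes measured there were. That choice shared 302 of 414 squares (72.9%) with the main one. The 104 genes were picked on all barcodes, the odd ones and all 4 parts included, so neither count is an independent check.

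The squares are goblet-rich only in part of the goblet cell's genes. Of the 20 highest genes outside the score, 1 was on a goblet list (Tff3), 3 were on the villus-tip list (Slc28a2, Ada and Nt5e) and 1 was on the enterocyte list (Apoa4). Ido1, which starts the breakdown of tryptophan to kynurenine, led with 408 counts in the high-score squares, 84.7 CPM against 16.3 CPM, a log2 ratio of 2.38 (95% counting interval 2.22 to 2.54). Ido1 was at 0 in 199 of 414 high-score squares and in 6750 of 7871 remaining squares. Cldn4, a claudin of tight junctions, followed at 1.86 (99.3 against 27.3 CPM). The 3 villus-tip genes handle purines. Slc28a2, a nucleoside transporter, stood at 1.86 with 1010 against 279 CPM. Ada, adenosine deaminase, stood at 1.70 with 4007 against 1229 CPM. Nt5e, the ectoenzyme that makes adenosine from AMP, stood at 1.69 with 76.8 against 23.8 CPM.

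Ada shows how far the single squares differed. Over the high-score squares it ran from 0 to 27378 CPM with a median of 2631 CPM, and over the remaining squares from 0 to 19327 CPM with a median of 786 CPM. The groups overlapped over nearly the whole range, and 346 of the 414 high-score squares (83.6%) lay above the median of the remaining squares. Apoa4, an apolipoprotein of enterocytes, ran from 1594 to 49604 CPM with a median of 11708 CPM, against a median of 3522 CPM, and 400 of 414 squares lay above that median. Tff3, the trefoil peptide of goblet cells and the highest goblet gene outside the score, ran from 0 to 4369 CPM with a median of 1070 CPM, against a median of 418 CPM. Here 375 of 414 squares (90.6%) lay above the median of the remaining squares.

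The other genes among the 20 highest were of mixed kinds. Transporters and channels were Slc23a4, a nucleobase transporter (1.85), and Clca4a, a relative of Clca1 (1.57). Membrane, adhesion and trafficking genes were Fer1l6, of the ferlin family (1.74), the receptor Gprc5a (1.74), the laminin chain Lama3 (1.70) and the GTPase Rab30 (1.48). Transcription factors were the stress factor Atf3 (1.73) and Prdm1 (1.36). Bmp8b (1.56), Slfn4 (1.47), Rasgef1b (1.41), Trim15 (1.39), Tff3 (1.38), Apoa4 (1.37) and the granzyme Gzmb (1.37) completed the 20. Of the 20 genes, 19 lay above 0 in all 4 parts of the section; Bmp8b was the exception, at -0.85 in the part with 32 high-score squares. Of the 13 with a RefSeq start region, 10 held an E-box (51.4% of all windows did) and 5 the AP-1-like pattern (7.81%). The forkhead motif was held by 2 (20.5%), the CDX motif by 1 (10.9%), TATAAA by 1 (13.6%) and the interferon-stimulated response element by 0 (3.44%). A gene was counted if any of its windows matched, so these counts and the shares per window are not like for like. No enrichment was tested.

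The 12 lowest genes were of mixed kinds. Hspb1, a small heat shock protein of contractile cells among others, was lowest at -3.04, with 7 counts in the high-score squares, 1.45 against 11.97 CPM. Dact1 (-2.86), Osr1 (-2.83), Hand2 (-2.66), Mrc2 (-2.48) and Meis1 (-2.47) are expressed in mesenchyme. The potassium channel gene Kcnk3 (-2.83), the ceramidase gene Acer2 (-2.72), Steap4 (-2.63) and Olfm1 (-2.48) were as low. Thrsp (-2.61) and Plin1 (-2.50) serve lipid synthesis and storage in fat cells. These 12 genes had 4 to 34 counts in the high-score squares, and 11 of the 12 were below 0 in every part, Steap4 being at 0.74 in the part with the fewest high-score squares.

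Goblet products outside the score were only partly higher. Of 31 measured genes of this list, 24 lay above 0 (27.6% of all genes did), and the median was 0.23 against -0.30 for all genes. At least 2-fold higher were 3, where 0.791% of all genes were. They were Tff3 at 1.38, Lrrc26 at 1.07 (32 counts) and the protease Capn9 at 1.06 (72 counts). Another 2 were counted as at least 2-fold lower, where 11.0% of all genes were. Of these, the chemokine gene Ccl9 stood at -1.06, and Best2 held 0 counts in the high-score squares against 21 elsewhere, too few for a fold. Bcas1 stood at 0.86 and Sytl2, which links granules to their exit, at 0.64. The membrane mucins Muc3 and Muc13, which enterocytes also make, stood at 0.67 and 0.56. Lrrc26 stood at -0.0087 in the part with 32 high-score squares, so its ratio rests on the others.

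Other goblet genes lay on both sides of 0, where the median of all genes was -0.30. The following genes of that list and of its regulators were chosen after their values were seen. Agr2, the ER protein that goblet cells need for Muc2 assembly, was at 267 and 260 CPM, a log2 ratio of 0.04 (-0.04 to 0.12). Spink4, a secreted peptide of goblet cells and Paneth cells, was at 510 and 640 CPM, a ratio of -0.33 (-0.39 to -0.27). In single squares Spink4 had a median of 442 CPM against 586 CPM, and 138 of 414 high-score squares (33.3%) lay above the latter. The lectin gene Itln1 stood at -0.52. Among the transcription factors, Atoh1, which starts the secretory lineage, stood at 0.56 (0.27 to 0.84; 113 counts), Foxa3 at 0.38 and Spdef, which drives goblet maturation, at 0.14 (-0.20 to 0.47; 82 counts).

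The list of 25 goblet regulators had a median of -0.11, with 12 above 0 (27.6% of all genes were). Klf4, a factor of goblet cells and of mature enterocytes, was the 1 gene at least 2-fold higher, at 1.08 (331 against 156 CPM). The receptor gene Notch2 was the 1 at least 2-fold lower, at -1.06 from 18 counts. Of all genes, 0.791% were at least 2-fold higher and 11.0% at least 2-fold lower. Gfi1, a factor of the secretory lineage, stood at 0.71 (22 counts) and Elf3 at 0.22. On the Notch side, Rbpj stood at -0.75, Jag1 at -0.84 and Hey1 at -0.77 (5 counts).

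Genes of the machinery that makes and exports mucin lay on both sides of 0. None was at least 2-fold higher, where only 0.791% of all genes were. Of 39 genes of mucin glycosylation, 19 lay above 0, while 27.6% of all genes did, and the median was -0.0044 against -0.30 for all genes; B3gnt7 (0.80), the sulphotransferase gene Gal3st2 (0.78), B4galnt2 (0.59) and Galnt6 (0.45) were the upper end among named genes. St3gal4, the most abundant, stood at 0.19, and St3gal3 (-0.83), St6galnac2 (-0.90) and Chst5 (-1.20; 2 counts) were the lower end. For ER folding the median over 35 genes was -0.19, with 9 above 0, where 27.6% of all genes were. None was at least 2-fold higher, and Fkbp11 was at least 2-fold lower, where 11.0% of all genes were. The chaperone gene Dnajb9 stood at 0.55, P4hb, a disulphide isomerase, at 0.18, Canx at -0.37, Hyou1 at -0.54, Dnajc10 at -0.60, Pdia6 at -0.69 and Fkbp11 at -1.21 (10 counts). The 31 genes of ER translocation and early transport had a median of -0.22, with 8 above 0, where 27.6% of all genes were. Sec24d stood at 0.50 and Ergic1 at -0.71. Under scaling to the median of ratios both ER medians turn positive, to 0.10 for folding and 0.077 for translocation, so no direction is given for them. Of the 17 genes of granule release, 10 lay above 0 and the median was 0.13, with Sytl2 at 0.64 and Rab27a at 0.52 highest among named genes.

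Genes of enterocytes and of the villus tip were higher together. Of 24 enterocyte genes, 22 lay above 0 (27.6% of all genes did) and the median was 0.40. Their summed level was 61674 against 40146 CPM. Apoa4 (1.37) and Apoc3 (1.01) were at least 2-fold higher, Apoa1 stood at 0.86, the amino acid transporter gene Slc6a19 at 0.80, Apob at 0.78, Fabp2 at 0.35 and Fabp1 at -0.03. Of 15 villus-tip genes, 13 lay above 0 and 7 were at least 2-fold higher, against 0.791% of all genes. These 7 were Slc28a2, Ada, Nt5e, Pmp22 (1.22), Apobec1 (1.11), Klf4 (1.08) and the keratin gene Krt20 (1.05). The villus-tip median was 0.76, and the summed level was 9841 against 4160 CPM. Genes of the villus base had a median of -0.23 over 13, with Reg3b at 0.01 and Mt1 at -0.87. Among 24 genes of mucosal defence the median was -0.06, with 10 above 0. Sprr2a1 (1.16) was at least 2-fold higher, and 3 genes were counted as at least 2-fold lower (11.0% of all genes were): Nos2 (-1.55 from 2 counts), Gsdmc2 (-1.14) and Camp, with 0 counts in the high-score squares.

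Crypt genes were lower. Of all genes, 27.6% lay above 0 and the rest mostly below, which the following counts are to be read beside. All 30 proliferation genes lay below 0, with a median of -0.92, and 10 were at least 2-fold lower (11.0% of all genes were). Aurkb (-1.77), Stmn1 (-1.26), Tk1 (-1.24) and Top2a (-1.21) were the lowest. The summed level was 755 against 1376 CPM. Of 20 stem cell genes, 18 lay below 0, with a median of -0.90; Smoc2 stood at -1.44 and Olfm4 at -1.28. Of 22 Paneth cell genes, 19 lay below 0 and 14 were at least 2-fold lower, with a median of -1.09. Defa24, the most abundant, stood at 1360 CPM against 2800 CPM in the remaining squares, a ratio of -1.04, and Defa21 was lowest at -1.48. Defensin genes are near-identical copies, and the sources used here do not say how reads shared by them were counted.

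Other tissue layers were lower as well, and T cell genes were higher. Smooth muscle genes had a median of -1.77 over 15, all below 0, with Acta2 at -1.89 and Tagln at -2.09. Fibroblast genes had a median of -1.27 over 19, with Vim at -2.26. The median was -2.01 over 13 fat cell genes, with Adipoq at -2.42, and -1.55 over 16 genes of nerves and glia. For the list of T cells and natural killer cells, 17 of 20 genes lay above 0 (27.6% of all genes did), 7 were at least 2-fold higher (0.791% of all genes were) and the median was 0.88. The counts were low: the summed level was 191 against 96.8 CPM. Gzmb stood at 1.37 (71 counts), Cd7 at 1.31 (32 counts), Klrd1 at 1.18 (48 counts), Ccl5 at 1.17 (127 counts) and Gzma at 1.05 (337 counts). Of the defining genes, Cd3g held 91 counts (0.93), Cd8a 36 (1.04) and Cd4 5 (-0.48), these 3 chosen after their values were seen. Plasma cell genes had a median of -0.19 over 12, with Igha at 0.02. Of 8 measured neutrophil genes, 4 held 0 counts in the high-score squares, S100a8, S100a9, Camp and Mmp8, from 65, 76, 34 and 41 counts in the remaining squares. The 8 genes summed to 17.9 against 24.4 CPM.

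**Figure D3:**
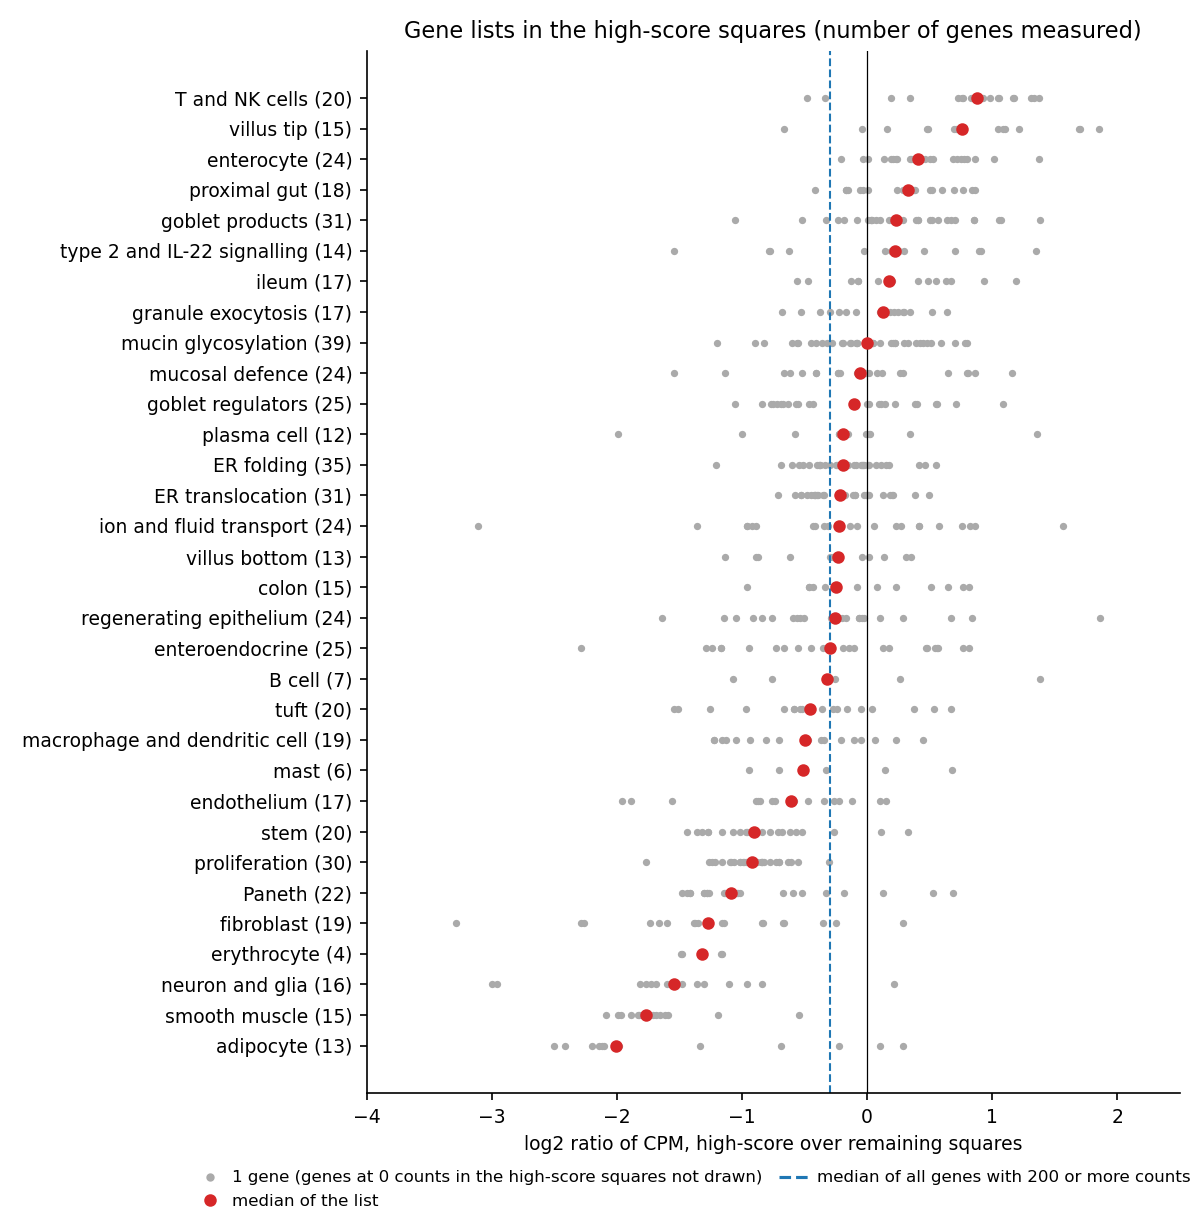
Log2 ratio of CPM in the high-score squares over the remaining squares of the section labelled knockout, by gene list (number of genes with 20 or more counts); grey points are genes, red points list medians, and the dashed line is the median of all genes with 200 or more counts, -0.30. T and NK cell (0.88), villus-tip (0.76) and enterocyte (0.40) genes lie highest, goblet products (0.23) lower, and fat cell (-2.01) and smooth muscle (-1.77) genes lowest; the neutrophil list has no finite median and is not drawn.

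The level of each gene was also compared with the score over all 8285 squares. By Spearman's rho over 5567 genes with 2000 or more counts, Apoa1 ranked first at 0.61, then Spink1 at 0.57, Prap1 at 0.57, Apoa4 at 0.57, Muc13 at 0.54 and Krt20 at 0.54, and Rpsa was lowest at -0.43. These squares share 1 library, and each level is a share of the same total. Among pairs, Zg16 stood at 0.62 with Apoa4 and at 0.52 with Fcgbp, whereas Muc2 stood at 0.23 with Apoa4 and at 0.42 with Fcgbp. Spink4 stood at -0.17 with Zg16 and at 0.043 with Muc2, and at 0.25 with Agr2. Of the 4 score genes, Zg16 thus had the highest rho with Apoa4, above Fcgbp at 0.34 and Clca1 at 0.23.

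The same genes were followed through 10 equal bins of the kept squares by score, to describe the values along the range. The threshold lies inside the highest bin, so the bins cannot show whether values change at it. From the lowest bin (score 0.232%) to the highest (1.12%), Ada went from 581 to 3267 CPM, Ido1 from 4.73 to 62.9 CPM and Tff3 from 340 to 1035 CPM. Each of the 3 was higher in every bin than in the one before. In the bin before the highest, Ada stood at 1902 CPM, Ido1 at 28.6 CPM and Tff3 at 653 CPM. Paneth genes summed to 12549 CPM in the lowest bin and 4452 CPM in the highest, and proliferation genes to 1777 and 811 CPM. Agr2 stayed between 247 and 279 CPM in all bins, and Spink4 went from 667 to 533 CPM.

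**Figure D4:**
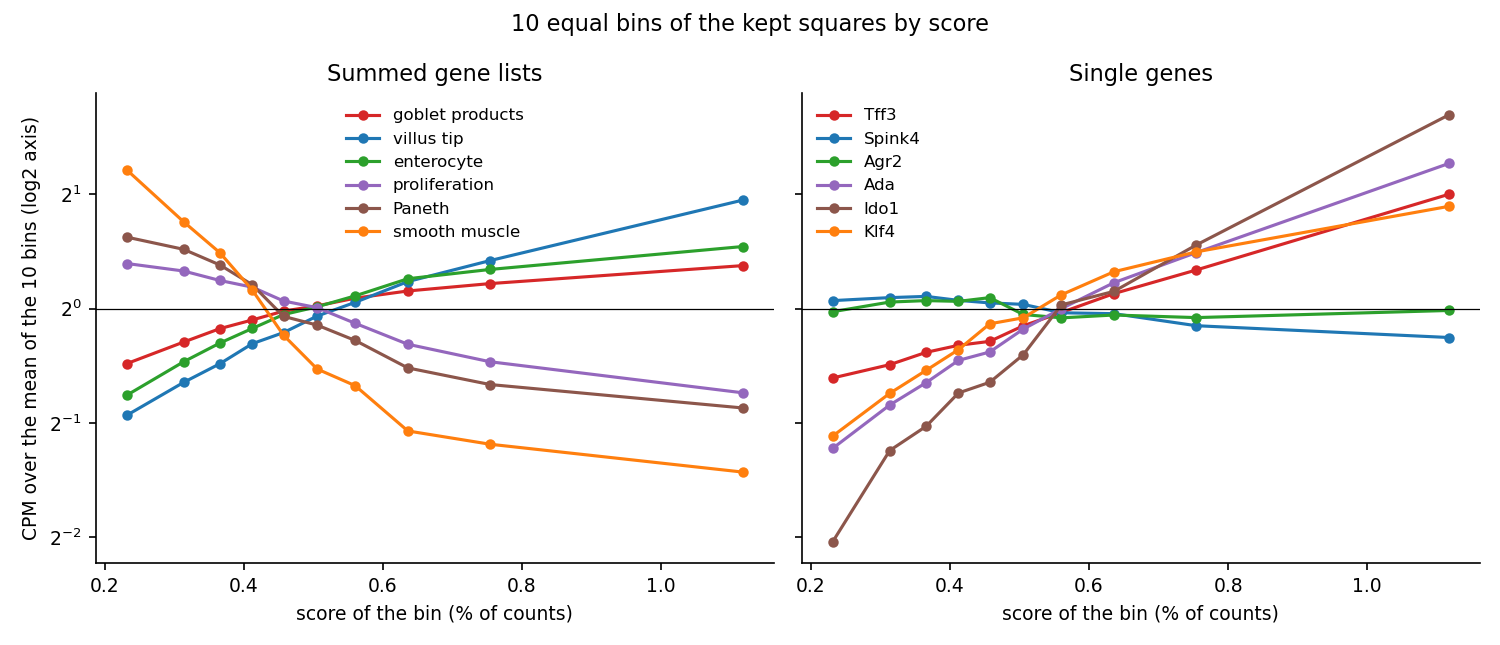
CPM of summed gene lists (left) and single genes (right) in 10 equal bins of the kept squares by score (x axis, percent of counts), each divided by its mean over the bins (y axis, log2 scale). Villus-tip genes, Ido1, Ada and Tff3 increase through the bins, Paneth, proliferation and smooth muscle genes decrease, and Agr2 stays between 247 and 279 CPM.

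Since villus-tip genes were higher, the high-score squares were also compared with the 1779 remaining squares whose villus-tip share reached 0.487%, the lower quartile of the high-score squares. This comparison was added after the values were seen. The villus-tip genes chose these squares and are only described: their median was 0.08. The sets were not equal in these genes. The summed villus-tip level was 9841 CPM in the high-score squares and 8316 CPM in the tip-rich ones. The median villus-tip share of a square was 0.794% and 0.683%. Few of the genes measured differed by 2-fold here. The minimum of 200 counts was applied anew to these fewer squares, so 8776 genes were measured in place of 13148. Of these, 3 (0.0342%) were at least 2-fold higher and 8 (0.0912%) at least 2-fold lower, and the median of all was -0.01. The 12 lowest genes named above still stood between -2.16 and -1.22, but not all of them reached the minimum here.

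The 3 genes at least 2-fold higher were Fer1l6, Ido1 and Tff3. Fer1l6 stood at 24.3 CPM against 8.16 CPM in the tip-rich squares, a log2 ratio of 1.57 (1.22 to 1.93; 117 counts). Ido1 stood at 84.7 against 32.7 CPM, a ratio of 1.37 (1.19 to 1.56). Tff3 stood at 1257 against 577 CPM, a ratio of 1.12 (1.08 to 1.17). Behind them came Capn9 at 0.996 (0.57 to 1.41), Gzmb at 0.97 (0.54 to 1.38), Bcas1 at 0.94 (0.57 to 1.30), Ccl5 at 0.92 (0.61 to 1.23) and Cldn4 at 0.80 (0.65 to 0.96). Slc28a2 stood at 0.38 here after 1.86 against all remaining squares, Ada at 0.40 after 1.70, Apoa4 at 0.31 after 1.37 and Clca4a at 0.16 after 1.57. Slc28a2 and Ada are on the villus-tip list that chose the tip-rich squares, so lower ratios for them follow from that choice.

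Against the tip-rich squares most of the goblet list again lay above 0. Of 29 measured goblet products, 25 lay above 0, while 47.1% of all genes did. The median was 0.40 where all genes had -0.01, after 0.23 where all genes had -0.30. Genes in general thus moved up as well. The summed level of the list had a log2 ratio of 0.11 here, after 0.46 against all remaining squares. Among goblet genes chosen after their values were seen, Atoh1 stood at 0.69 (0.36 to 1.005), the kallikrein gene Klk1 at 0.68, Foxa3 at 0.57, Spdef at 0.48 (0.10 to 0.84), Agr2 at 0.44 (0.35 to 0.53) and Spink4 at 0.14 (0.08 to 0.20). Medians were 0.04 for goblet regulators, 0.0069 for mucin glycosylation, 0.010 for ER folding, -0.02 for ER translocation and 0.15 for granule release. Enterocyte genes had a median of 0.05. For T and natural killer cells the median was 0.57, with 16 of 17 genes above 0. Of 30 proliferation genes, 29 lay below 0, with a median of -0.32, and Paneth genes had a median of -0.24.

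**Figure D5:**
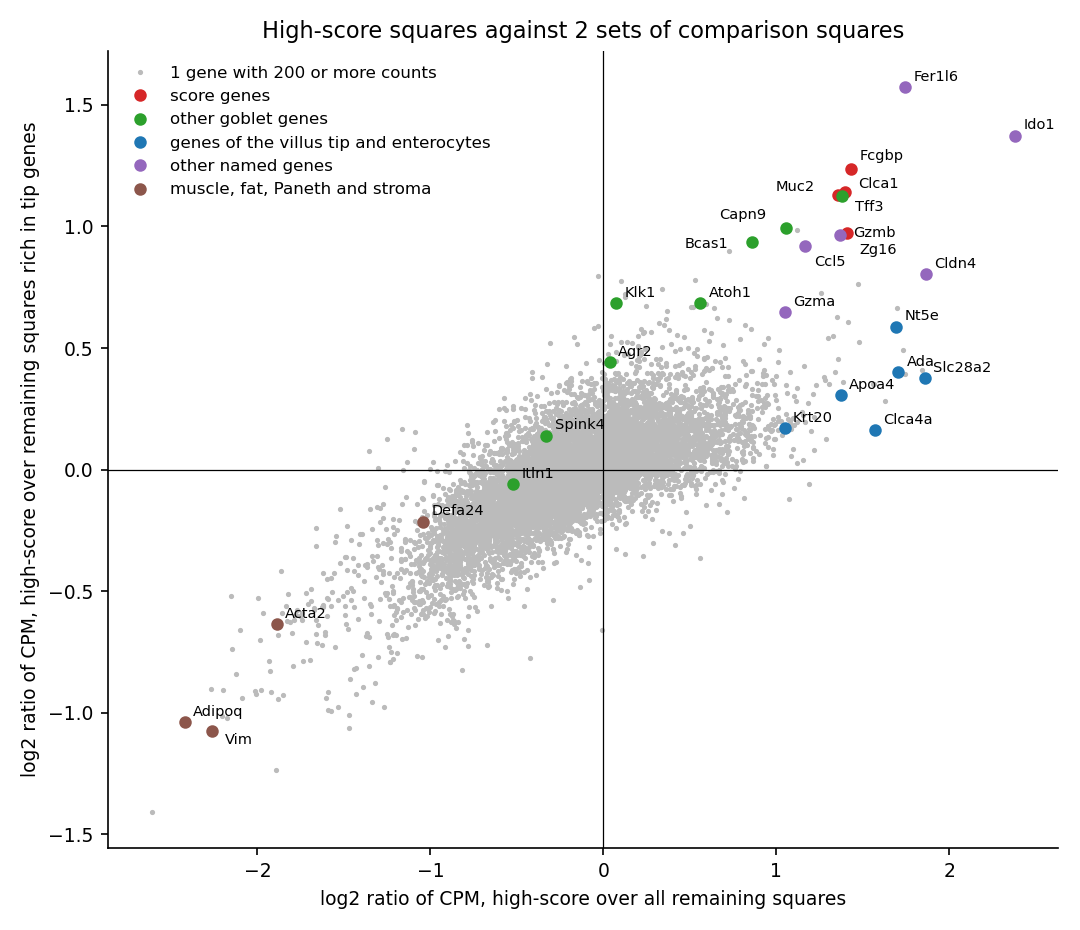
Each point is a gene with 200 or more counts; x axis, log2 ratio of CPM in the high-score squares over all remaining squares; y axis, over the remaining squares rich in villus-tip genes; score genes (red) chose the squares. Capn9 (1.06 and 0.996) and Bcas1 (0.86 and 0.94) have similar values on both axes. Ido1 goes from 2.38 to 1.37 and Tff3 from 1.38 to 1.12. Ada, Slc28a2, Apoa4 and Clca4a lie far to the right and low, between 0.16 and 0.40 on the y axis. Ada and Slc28a2 are on the villus-tip list that chose the comparison squares of the y axis, so low values for them follow from that choice.

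The high-score squares were also set against the 1609 remaining squares that touch one. Here 8857 genes reached 200 counts. Of these, 7 (0.0790%) were at least 2-fold higher, and 20 (0.226%) were lower by as much. The 7 were Ido1 (1.59), Fer1l6 (1.41), Cldn4 (1.15), Nt5e (1.12), Bmp8b (1.07), Lama3 (1.04) and Tff3 (1.02). Villus-tip genes had a median of 0.39, goblet products 0.26 and enterocyte genes 0.03.

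The high-score squares overlapped in part with squares rich in other lists. Of the 414, 123 (29.7%) were also in the top 5% of squares by villus-tip share, and 122 (29.5%) in the top 5% by goblet products outside the score. None was in the top 5% by Paneth, stem cell, proliferation or smooth muscle genes. The 123 squares inside the tip set and the 291 outside it had similar Muc2, 1603 and 1549 CPM, and similar Fcgbp, 3178 and 3266 CPM. Zg16 was at 8844 and 7637 CPM and Tff3 at 1516 and 1159 CPM. Ada, whose own counts are part of the villus-tip share that split the squares, was at 9661 and 1867 CPM. Outside that list, Cldn4 was at 248 and 42.9 CPM and Ido1 at 146 and 61.5 CPM. Spink4 had the opposite order, at 293 CPM inside and 591 CPM outside. Outside the tip set, Tff3 and Ido1 were still above the 474 and 14.9 CPM of the remaining squares outside it. This was not particular to them. Ada stood there at 1867 against 995 CPM, Slc28a2 at 469 against 211 CPM, Apoa4 at 10330 against 4933 CPM and Cldn4 at 42.9 against 22.5 CPM. Spink4 was lower, at 591 against 652 CPM.

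The same rule in the section labelled wild type took 246 of 4917 kept squares, at far lower scores, 0.301% at the lowest, 0.364% at the median and 1.84% at the highest. Only 8 of its 4917 squares (0.163%) reached the threshold of the section labelled knockout, while 7215 of 8285 squares there (87.1%) reached the wild-type one. The score also had another make-up: Muc2 gave 69.2% of the score counts in the 246 squares, Zg16 23.3%, Fcgbp 6.60% and Clca1 0.941%. Over all kept squares Zg16 stood at 3265 CPM in the section labelled knockout and 175 CPM in the section labelled wild type, Fcgbp at 1309 and 60.2 CPM, and Muc2 at 662 and 1315 CPM. Most score counts thus came from Zg16 in the section labelled knockout and from Muc2 in the section labelled wild type. A share of counts does not show which gene sets the ranking. In the rest of the section labelled wild type Muc2 gave 86.9% of the score counts. Between the 246 squares and that rest, Zg16 stood at 968 against 132 CPM, Fcgbp at 274 against 48.7 CPM, Clca1 at 39.1 against 5.23 CPM and Muc2 at 2874 against 1231 CPM.

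In the 246 squares, 67 of 11653 genes (0.575%) were at least 2-fold higher than in the rest of that section and 279 (2.39%) at least 2-fold lower, the median of all being -0.13. Goblet products had a median of 0.53 there, with 30 of 31 above 0 (29.8% of all genes were), and enterocyte genes 2.17, with 23 of 24. Apoa4 (3.42) was among the leading genes, from 657 against 61.4 CPM, so enterocyte genes rank with the score in both sections, at much lower levels in the section labelled wild type. Agr2 stood at 0.77 and Spink4 at 0.59, both higher than in the section labelled knockout. Tff3 stood at 0.99, Ido1 at 1.53 from 17 counts and Gzmb at -0.64 from 1 count. Of the 20 genes highest in the section labelled knockout, 19 lay above 0 here. By the rule on goblet genes that differ most between the sections, Gal3st2 stood at 0.78 and 2.19, Ccl9 at -1.06 and 0.30, and Fkbp11 at -1.21 and 0.23, knockout label first. No difference between the labels was tested, since each had 1 section.

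Set side by side, the high-score squares of both sections differed by 2-fold in many genes: 1384 of 4931 genes (28.1%) were at least 2-fold higher in those labelled knockout and 885 (17.9%) at least 2-fold lower. Muc2 stood at 1564 CPM against 2874 CPM, Tff3 at 1257 against 631 CPM, Spink4 at 510 against 6310 CPM and Defa24 at 1360 against 49596 CPM. Enterocyte genes summed to 61674 against 3378 CPM. Section and label cannot be told apart.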

How the data were processed

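Spatial transcriptomes of 2 irradiated mouse intestine sections, 1 per label, were analysed. The authors deposited raw counts, whole numbers for each barcode and gene; per the labels' protocols, frozen sections of 10 µm were used, and the submitters' processing notes name GRCm38. The sources used here do not give the aligner, the counting tool or whether molecular identifiers were collapsed. Counts were summed over squares (Python 3.11.15, numpy 2.4.6, scipy 1.17.1, pandas 2.3.3) and given as CPM. Intervals (95%; Poisson, Clopper-Pearson or exact conditional binomial) cover counting error only. Reads without molecular identifiers are not independent molecules. Barcode names are array positions, and 45557 names occur in both sections. The squares, the 33 gene lists and all comparisons were chosen with earlier results of these data known. Named genes are the 20 highest and 12 lowest ratios with 500 or more counts, from each list its 2 most abundant genes and up to 5 extreme ones with at least 50 counts, and 8 goblet genes differing most between sections; predicted, ribosomal, immunoglobulin, T cell receptor and haemoglobin genes are left out of the highest and lowest, and other genes are said to be chosen afterwards. Alternatives varied the share, count minimum, side, score genes, barcodes, comparison squares, scaling, summing, filter and stretch. Scripts were tested on simulated data.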

Additional observations from a re-analysis of the deposited data

Results flagged for a closer look

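The Paneth cell list went opposite ways in the 2 sections. Its median log2 ratio, high-score over remaining squares, was -1.09 in the section labelled knockout, with 19 of 22 genes below 0. In the section labelled wild type it was 0.36, with 22 of 22 above 0. Of all genes, 27.6% lay above 0 in the former section and 29.8% in the latter. The summed level was 4204 against 8294 CPM in the former and 175322 against 132166 CPM in the latter. The difference was not tested, because each label had 1 section.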

How the results depend on the processing

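No paired analysis was possible because each label had 1 section, and no replicate could be left out. The number of high-score squares follows the rule: 166 for the top 2%, 828 for the top 10%, 109 for squares of 20 position units, and 32, 77, 142 and 163 in the 4 parts. Genes at least 2-fold higher numbered 187 for the top 2%, 67 for the top 10%, 67 without Zg16, 66 in the odd positions when squares were chosen by the even ones, 342 under the median of ratios, 39 within the fourth part, 225 with 50 or more counts, 50, 38 and 67 for scores of Fcgbp, Clca1 and Muc2 alone, 7 against touching squares and 3 against tip-rich squares. Genes at least 2-fold lower numbered 765 under the median of ratios, 717 within the fourth part, 2592 with 50 or more counts, 816 and 836 for Clca1 and Muc2 alone, 20 against touching squares and 8 against tip-rich squares. For each setting the minimum count was applied to its own squares, so the genes measured can differ between these numbers. The goblet product median stayed between 0.097 and 0.53, the latter under the median of ratios. The ER folding median turned to 0.10 under the median of ratios and 0.010 against tip-rich squares and was -0.044 for Fcgbp alone. Against touching and tip-rich squares, the enterocyte median was 0.029 and 0.050, the Paneth median -0.17 and -0.24, the villus-tip median 0.39 and 0.082 and the proliferation median -0.41 and -0.32. The Paneth median was -1.37 within the third part. The proliferation median was -1.06 and -0.83 for the top 2% and 10%, -0.79 without Zg16, -0.62 under the median of ratios, -0.81, -0.71, -1.02 and -0.82 within the parts, and -0.70, -0.64 and -0.54 for Fcgbp, Clca1 and Muc2 alone. The cause of these moves was not tested. ER translocation turned to 0.077 under the median of ratios, and the regenerating epithelium list to 0.038 there, 0.038 within the first part and 0.10 for Muc2 alone. Among single genes, signs turned within the first part for Bmp8b (-0.85), Steap4 (0.74), Lrrc26 (-0.0087), Notch2 (0.038), Aqp4 (0.41), Nos2 (0.80), Ascl2 (0.32), Vwa5b2 (0.21), Ctgf (0.84) and Klrd1 (-0.41), where 32 high-score squares leave few counts. Signs also turned for Cd163 (0.22) within the second part and Alox5 (0.097) within the third, Prox1 at 20 position units (0.14) and for Fcgbp (0.073) and Clca1 alone (0.25), Chst5 for Muc2 alone (0.030), Pla2g2a against touching squares (0.10), and Slc34a2 (-0.060), Cd163 (0.025), Vip (0.0046) and Hbb-bt (0.17) against tip-rich squares. Scores of 1 gene and the tip-rich squares were chosen after seeing the data. Over single genes, 3495 of 5070 comparisons stayed within the counting interval, 1554 lay beyond it and 21 turned sign; 165 values of genes or lists could not be given because a set of squares held 0 counts. Depth limits genes with few counts in the high-score squares, of which single squares mostly hold 0, and no value has a replicate.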

Other observations

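Lists of other epithelial types and of gut regions showed no common direction in the high-score squares. The 25 enteroendocrine genes had a median log2 ratio of -0.30, that of all genes, with Gip at 0.57, Cpe at -1.17 and Scg2 at -1.24. The 20 tuft cell genes had a median of -0.46, with Trpm5 at 0.67. Genes of the proximal gut had a median of 0.33 over 18 genes, with Slc30a10 at 0.86 and Rbp2 at 0.52. Ileal genes had 0.18 over 17, with Slc34a2 at 1.19 and Slc51b at 0.94, and colonic genes -0.25 over 15, with Ceacam1 at 0.77 and Car4 at -0.96. Among 14 genes of type 2 and interleukin-22 signalling, 9 lay above 0 (27.6% of all genes did). Il1rl1, the receptor for interleukin-33, was the 1 gene at least 2-fold higher, at 1.35 from 57 counts (0.791% of all genes were), and Il17rb the 1 at least 2-fold lower, at -1.54 from 3 counts (11.0% of all genes were).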
